A study of Mus musculus with 20 samples.

Results

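The 26S proteasome degrades proteins tagged with ubiquitin, and 50 of the 22416 gene names in the deposited footprint counts were taken as proteasome genes because their name starts with PSM, one of the letters A to G and a digit. They fell into 14 constitutive subunits of the 20S core particle, 17 subunits of the 19S regulatory particle, 3 immunoproteasome beta subunits and 16 others. The others were 7 assembly chaperones, 4 activators, the inhibitor Psmf1, the tissue-restricted core subunits Psma8 (testis) and Psmb11 (thymus), Psme2b and Psmc3ip. Psmc3ip encodes the meiotic recombination factor HOP2 and matched by its letters only. The rule itself reads only the name.

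The 20S core is a barrel of outer alpha rings and inner beta rings, and Psmb5, Psmb6 and Psmb7 carry its active sites. The 19S particle caps the barrel: a ring of ATPases (Psmc genes) unfolds substrates, other base subunits and a lid bind and remove ubiquitin (Psmd genes), and the lid subunit Psmd14 is a deubiquitinase. Interferons induce Psmb8, Psmb9 and Psmb10, which replace the constitutive active subunits in the immunoproteasome, and Psme1 and Psme2, which form the PA28 activator. When proteasome activity falls, the transcription factor encoded by Nfe2l1 raises the constitutive subunit genes together.

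Ribosome-protected fragments were sequenced from KI mouse embryonic stem cells (eIF2αA/A, with an alanine in place of the regulatory serine of the initiation factor eIF2α) and from WT cells (eIF2α+/+). Each genotype was kept for 6 days in LIF, or in LIF/2i, which is LIF with PD0325901 (a MEK inhibitor) and CHIR99021 (a GSK3 inhibitor), with KnockOut serum replacement in place of serum. LIF was added at 1000 U/mL. Lysates treated with cycloheximide were digested with RNase I (2 libraries per group, 8 in all) or MNase (3 per group, 12 in all). The labels do not say how many clones stand behind each genotype, whether feeder cells were present or whether replicates were separate cultures, so p-values measure the spread between these libraries only.

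Library totals ran from 6560173 to 8894080 counts in KI and from 2127850 to 5461210 in WT with MNase, so depth and genotype did not overlap there, and from 1965050 to 16359039 in KI and from 4011036 to 22916734 in WT with RNase I. Levels are given as CPM, read counts scaled to the TMM-adjusted library total, with TMM taken within each nuclease. Folds are log2 values of edgeR's quasi-likelihood fit with its standard error (SE). A gene was called at a Benjamini-Hochberg adjusted p under 0.05 over all genes tested. The share of all genes whose groups do not overlap is not given. Where groups are said not to overlap, this describes the libraries of that gene only. Footprints combine RNA level and translation, and fewer cells of a type and less RNA per cell cannot be told apart in these bulk samples. Levels of different genes were not compared, since the counts were not scaled by length. The 8 embryonic stem cell markers summed to 4657 to 6388 CPM in the MNase libraries, with none at 0. Eif2s1, which encodes eIF2α, averaged 158 ± 19.9 CPM in KI and 101 ± 11.2 CPM in WT in LIF/2i with MNase (SD, n = 3 each; log2 fold change 0.65, SE 0.13, edgeR adjusted p = 0.00384), and counts cannot show the amino acid change itself.

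With MNase, 47 of the 50 genes passed the filter on low counts and were tested among 12806 genes. Psmb8, Psmb11 and Psme2b did not pass. With RNase I, Psme2 also failed it, and 46 members were tested among 12095 genes. Psmb11, the thymus subunit, had 1 read in each of 3 MNase libraries and no read in the other libraries of either nuclease. Psma8, the testis counterpart of an alpha subunit, was at 35.4, 43.4 and 47.1 CPM in KI LIF, 27.9, 43.4 and 46.0 in KI LIF/2i, 28.3, 26.9 and 32.2 in WT LIF and 42.5, 29.9 and 30.2 in WT LIF/2i with MNase. Its ranges overlapped between the genotypes in LIF/2i, while in LIF every KI library was above every WT library (log2 fold change 0.52, edgeR adjusted p = 0.123). Psmc3ip lay at 25.8 to 42.8 CPM over the 12 MNase libraries and was called in no comparison of genotype or medium. RefSeq's gene table for the mouse also lists pseudogenes of Psma5, Psmb5, Psmb6 and Psmb7, and Psme2b is a near copy of Psme2, so the counts of these genes may be split between copies and are uncertain.

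RefSeq promoter sequences (build GRCm38.p6) were on hand for 42 of the 50 genes. The 250 bases before the start are shown for 2 genes that will be described as higher in LIF, Psmb9 and Psmb10, and for 2 described as higher in KI, Psma6 (the second of its 2 listed starts) and Psmd6. Capitals mark the ETS core CCGGAAG, a match to the binding core of ETS transcription factors. All read 5′ to 3′ on the gene's strand.
Psmb9, chr17:34187331-34187580, minus strand: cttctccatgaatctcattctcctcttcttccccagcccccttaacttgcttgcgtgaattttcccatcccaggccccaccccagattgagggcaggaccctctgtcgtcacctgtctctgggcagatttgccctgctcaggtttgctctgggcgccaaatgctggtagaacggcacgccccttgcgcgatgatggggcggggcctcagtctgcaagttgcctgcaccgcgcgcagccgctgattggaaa
Psmb10, chr8:105938393-105938642, minus strand: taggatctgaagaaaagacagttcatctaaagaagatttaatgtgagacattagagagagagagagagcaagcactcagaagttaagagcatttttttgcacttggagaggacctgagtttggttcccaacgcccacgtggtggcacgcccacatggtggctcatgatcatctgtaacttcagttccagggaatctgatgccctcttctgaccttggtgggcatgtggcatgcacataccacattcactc
Psma6, chr12:55398575-55398824, plus strand: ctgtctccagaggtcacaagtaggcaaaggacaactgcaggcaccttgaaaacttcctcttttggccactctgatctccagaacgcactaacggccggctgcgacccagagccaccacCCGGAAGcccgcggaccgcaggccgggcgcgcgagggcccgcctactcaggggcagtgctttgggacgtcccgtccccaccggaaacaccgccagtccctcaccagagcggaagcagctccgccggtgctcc
Psmd6, chr14:14120946-14121195, minus strand: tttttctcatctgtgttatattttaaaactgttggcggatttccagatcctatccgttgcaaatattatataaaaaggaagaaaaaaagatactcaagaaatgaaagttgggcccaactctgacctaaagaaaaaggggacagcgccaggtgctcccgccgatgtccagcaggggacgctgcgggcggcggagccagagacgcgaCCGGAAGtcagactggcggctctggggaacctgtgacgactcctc
The marked ETS core began at -132 from the start in Psma6 and at -45 in Psmd6, and neither strand of the 2 immunoproteasome sequences held it. It was also absent from the 250 bases before the first listed start of Psma6 and before Psmc5, another gene described as higher in KI. Over windows of 300 bases (250 before to 50 after the start, both strands), CCGGAAG was in 15 of the 42 genes (35.7%), against 8.86% of 32851 RefSeq promoters. A gene with several starts was counted once if any of them matched, whereas the background counted each start. Of these 15 genes, 10 encode constitutive subunits, among them Psmc1, Psmc2 and Psmc6 of the ATPase ring. Psmd2, Psmd11 and Psmd12 held the core too, and the MNase fit without a block called them in no comparison of genotype or medium. Psma2, Psma4, Psmc5 and Psmd14, higher in KI in LIF/2i, did not match. Whether the motif goes with the KI values was not tested.

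Shares of the other 10 motifs searched lay closer to those of all promoters or rested on few genes. The antioxidant response core, bound by factors of the Nfe2l1 family, was found as TGACNNNGC in 14.3% of the 42 genes, against 12.4% of all promoters. Its form TGAGNNNGC was in 31.0% against 17.6%. The interferon-stimulated response core (GAAA, any 2 bases, GAAA) was in 5 genes (11.9%), against 3.44%. These were Psmb3, Psmd4, Psmd9, Psmg4 and Psme1, the last through the match TTTCGCTTTC at 10 bases after the start on the other strand. The CCAAT box was in 35.7% against 37.4%, the gamma-activated site TTCNNNGAA in 7.14% against 8.30%, and the heat shock core GAANNTTC in 7.14% against 7.86%. No member matched the cAMP response element TGACGTCA, the NF-kappaB core GGGANTTCC, the longer NF-kappaB consensus or an ETS site side by side with a cAMP response element, which 1.79%, 1.68%, 0.155% and 0.259% of all promoters held. The motifs and the window were chosen after the sequences had been seen. The Psme1 match lies outside the 250 bases before the start, which were searched first, and a match is not evidence of binding.

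In LIF/2i, MNase footprints on 17 proteasome genes were higher in KI than in WT and those on 2 were lower. That is 19 of 47 tested, where 25.4% of all genes tested were called, 13.9% higher and 11.5% lower. Of the 31 constitutive subunits, 15 were higher and none was lower, with a median log2 fold change of 0.43, against 0.006 for all genes. By class, 6 of 6 subunits of the ATPase ring were higher, against 4 of 8 in the lid, 0 of 3 in the rest of the base, 3 of 7 alpha and 2 of 7 beta subunits.

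Psmc5, an ATPase of the base, was at 559, 648 and 578 CPM in KI, against 351, 339.5 and 319 CPM in WT (log2 fold change 0.82, SE 0.11, edgeR adjusted p = 0.000614). Psmc4, its neighbour in the ATPase ring, was at 359.6, 339 and 334 CPM in KI, against 222, 239.7 and 188 CPM in WT (log2 fold change 0.67, SE 0.12, edgeR adjusted p = 0.00285). In both genes every KI library was above every WT library. The other ATPases were higher by 0.37 (Psmc3), 0.43 (Psmc6), 0.46 (Psmc2) and 0.76 (Psmc1) on the log2 scale. The groups of these 4 did not overlap either. All 4 lost their call without KI LIF/2i replicate 2 and also without WT LIF/2i replicate 2.

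Psmd6, a lid subunit, was at 352, 368 and 352 CPM in KI, against 231, 231 and 212 CPM in WT (log2 fold change 0.67, SE 0.12, edgeR adjusted p = 0.00225). The deubiquitinase Psmd14 and the lid subunits Psmd13 and Psmd7 were also higher, by 0.57, 0.54 and 0.44, and the groups of Psmd6 did not overlap. In the core, Psma6 of the alpha ring was at 499, 550.1 and 509 CPM in KI, against 361, 339.8 and 308 CPM in WT (log2 fold change 0.63, SE 0.10, edgeR adjusted p = 0.0014). Psma2 and Psma4 were each higher by 0.58, and in the beta ring the call fell on Psmb2 (0.58) and the caspase-like active subunit Psmb6 (0.48). Psmb6 was at 262, 273 and 271 CPM in KI, against 197, 226 and 155 CPM in WT, without overlap, and lost its call without WT LIF/2i replicate 3, KI LIF/2i replicate 2 or KI LIF/2i replicate 3. The chymotrypsin-like Psmb5 was at 23.7, 24.3 and 18.2 CPM in KI, against 19.9, 20.2 and 17.0 CPM in WT and the trypsin-like Psmb7 at 505, 495 and 476 CPM in KI, against 396, 429 and 366 CPM in WT, and neither was called (edgeR adjusted p = 0.421 and 0.0699). The Psmb5 groups overlapped, and those of Psmb7 did not.

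The activators moved in both directions. Psme3, which forms the nuclear activator PA28 gamma, was at 248, 273 and 260.4 CPM in KI, against 181, 172 and 186 CPM in WT (log2 fold change 0.54, SE 0.10, edgeR adjusted p = 0.00264). Psme4, which encodes the activator PA200, was at 768, 618 and 639 CPM in KI, against 978, 935 and 971 CPM in WT (log2 fold change -0.51, SE 0.14, edgeR adjusted p = 0.0188), with every KI library below every WT library. Psme2 had 1, 6 and 3 reads in KI, against 6, 5 and 10 reads in WT, and at these counts it was lower in KI (log2 fold change -2.08, SE 0.55, edgeR adjusted p = 0.015). Its call was lost without WT LIF/2i replicate 3 or KI LIF/2i replicate 3, and Psme4 lost its call without KI LIF/2i replicate 2 or 3. Without KI LIF/2i replicate 2 the count of calls was 12 (background 12.2%). With the replicate number as a block 19 members were again called (background 26.7%). Of the 7 assembly chaperones, only Psmd5, a 19S chaperone, was called higher (0.41). The 10 genes that stayed called whichever single library was left out were Psma2, Psma4, Psma6, Psmb2, Psmc4, Psmc5, Psmd6, Psmd13, Psmd14 and Psme3.

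**Figure D1:**
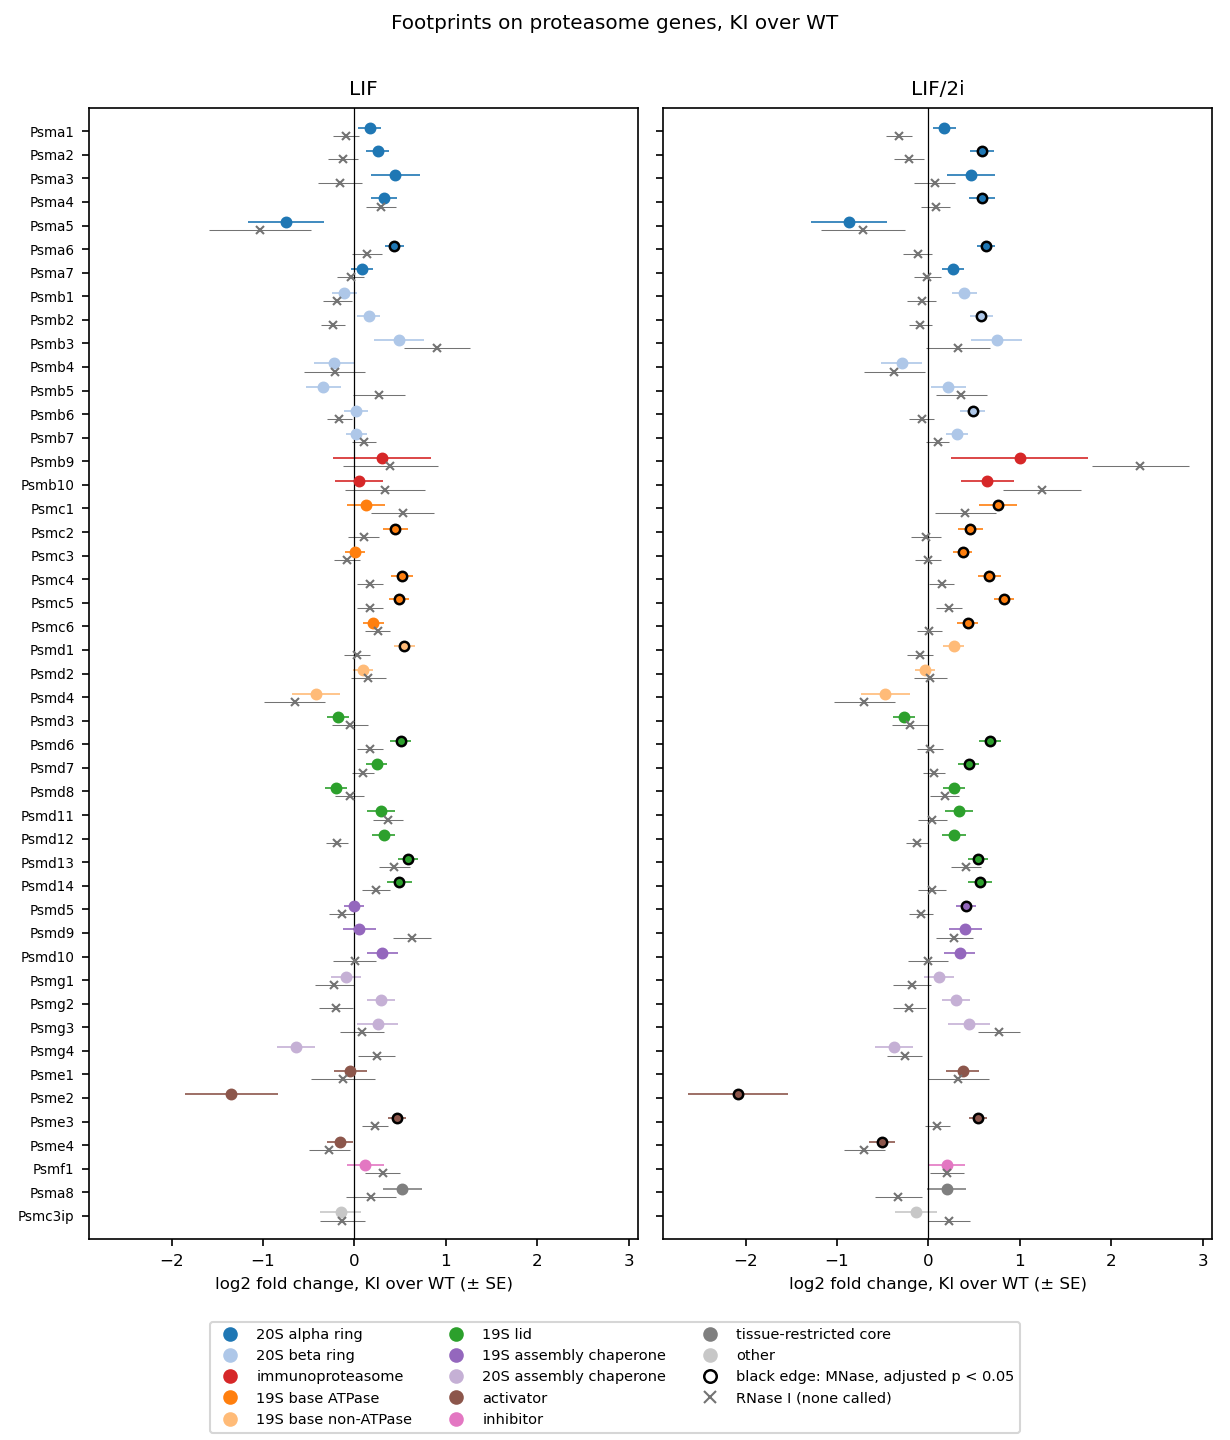
The log2 fold change of KI over WT (x axis, ± SE of the fit) is drawn for each tested proteasome gene (y axis), in LIF (left panel) and LIF/2i (right panel), as filled circles coloured by class for MNase (black edge, adjusted p under 0.05) and grey crosses for RNase I. In LIF/2i the ATPase ring lies right of 0 in MNase, from 0.37 to 0.82, and most crosses lie near 0.

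In LIF, 9 of the 47 genes were higher in KI and none was lower, where 13.6% of all genes tested were called, 7.49% higher and 6.08% lower. The regulatory particle held 7 of the 9 (of 17 subunits), the core 1 of 14, and the activators 1. The median of the 47 was 0.16, against -0.007 for all genes. Psmd13, a lid subunit, was at 523, 519 and 484 CPM in KI, against 339, 342 and 337 CPM in WT (log2 fold change 0.58, SE 0.11, edgeR adjusted p = 0.00529). Psme3 was at 294, 287 and 268 CPM in KI, against 211, 202 and 202 CPM in WT (log2 fold change 0.46, SE 0.10, edgeR adjusted p = 0.00907). Psmd1, the large scaffold subunit of the base, was at 876, 648 and 818 CPM in KI, against 511, 551 and 542 CPM in WT (log2 fold change 0.55, SE 0.12, edgeR adjusted p = 0.00907). In each of these 3, every KI library lay above every WT library, and they were the genes that stayed called whichever library was left out.

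Psmc5 was at 571, 468 and 500.0 CPM in KI, against 375, 347 and 379 CPM in WT (log2 fold change 0.48, SE 0.11, edgeR adjusted p = 0.0126), and Psma6 at 529.6, 495 and 479 CPM in KI, against 355, 375 and 380.0 CPM in WT (log2 fold change 0.44, SE 0.10, edgeR adjusted p = 0.0142). In both, every KI library lay above every WT library. The remaining calls were Psmc4 (0.52), Psmd6 (0.50), Psmd14 (0.49) and Psmc2 (0.44). Without WT LIF replicate 1, and likewise without WT LIF replicate 2, 4 members were called (background 5.5% and 7.22%). The active beta subunits were not called: Psmb5 was at 17.4, 13.8 and 14.4 CPM in KI, against 17.3, 19.8 and 20.2 CPM in WT, Psmb6 at 271, 230.0 and 233 CPM in KI, against 239, 236 and 250.4 CPM in WT and Psmb7 at 561, 442 and 478 CPM in KI, against 541, 458 and 462 CPM in WT. All 3 overlapped between the genotypes.

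Other properties of the libraries moved with genotype. Primitive endoderm markers (6 of 6 found) summed to 37.6 to 58.7 CPM in KI and 61.2 to 66.0 CPM in WT in LIF/2i, and to 56.6 to 61.2 CPM in KI and 154 to 210 CPM in WT in LIF, and none was at 0. They were lower in KI for 2 of 6 in LIF/2i and 5 of 6 in LIF, where 11.5% and 6.08% of all genes were lower. Trophoblast markers summed to 247 to 276 CPM in KI and 405 to 568 CPM in WT in LIF, without overlap. Of the 8 embryonic stem cell markers, 3 were higher and 1 lower in KI in LIF/2i, and 2 were lower in LIF. The part of these markers in the proteasome values was not tested. With all MNase libraries thinned to the smallest total, 18 and 9 proteasome genes were called in LIF/2i and LIF of 44 tested (background 22.2% and 12.7%).

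With RNase I no member was called for KI against WT in either medium by edgeR, and DESeq2 called none either. The background was 0.215% of all genes in LIF/2i (0.107% in each direction) and 0.116% in LIF (0% higher and 0.116% lower). The median log2 fold change of the 46 was 0.01 in LIF/2i and 0.09 in LIF. Psmc5 with RNase I was at 546 and 624 CPM in KI, against 495 and 509 CPM in WT in LIF/2i (log2 fold change 0.22, edgeR adjusted p = 0.553). Psma6 was at 319 and 432 CPM in KI, against 392 and 423 CPM in WT (-0.12) and Psmd6 at 276 and 298 CPM in KI, against 279 and 288 CPM in WT (0.02). KI exceeded WT in every library for Psmc5 alone among these 3.

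The tested immunoproteasome genes, Psmb9 and Psmb10, were called for KI against WT with neither nuclease. In LIF/2i Psmb10 was at 18.5, 13.4 and 12.4 CPM in KI, against 7.8, 10.3 and 10.1 CPM in WT with MNase (log2 fold change 0.64, SE 0.29, edgeR adjusted p = 0.119) and at 17.6 and 17.2 CPM in KI, against 6.6 and 8.2 CPM in WT with RNase I (log2 fold change 1.24, SE 0.42, edgeR adjusted p = 0.289). Psmb9 was at 1.22, 1.92 and 0.847 CPM in KI, against 0, 0.293 and 1.48 CPM in WT with MNase (log2 fold change 1.00, SE 0.75, edgeR adjusted p = 0.347) and at 2.33 and 2.32 CPM in KI, against 0.452 and 0.462 CPM in WT with RNase I (log2 fold change 2.31, SE 0.53, edgeR adjusted p = 0.133). Every KI library of Psmb10 was above every WT library with both nucleases, and Psmb9 overlapped with MNase and did not with RNase I. Psme4 was at 670.4 and 591 CPM in KI, against 1012 and 1039 CPM in WT with RNase I, below WT as with MNase, and did not pass the test (log2 fold change -0.70, SE 0.22, edgeR adjusted p = 0.26).

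The RNase I libraries carry replicate numbers 1 and 2 only, and MNase replicates 1 and 2 fitted alone called 1 member in LIF/2i (background 2.08%) and 0 in LIF (0.0715%). The genotype difference with RNase I minus that with MNase was therefore tested over the 16 libraries of replicates 1 and 2, a test added after the data had been seen. Without a block, edgeR called no gene at all in either medium. With the group and replicate number together as a block, 18 of 47 members were lower with RNase I in LIF/2i. There 15.7% of all genes were called, 6.41% higher and 9.3% lower. In LIF the fit with this block called 2, both lower (background 0.982%, 0.338% higher and 0.644% lower). Same-numbered libraries of the nucleases deviated together, with correlations from 0.486 to 0.711 over the 4 groups. The labels do not say whether these libraries shared a culture. Of the 18, 16 were constitutive subunits, led by Psma2 (-0.83), Psma6 (-0.69), Psmb2 (-0.65) and Psmd6 (-0.60).

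Summed over all 50 genes, the genotypes overlapped as shares of the plain library totals. With MNase the genes held 1.14 ± 0.028% in KI and 1.04 ± 0.072% in WT in LIF/2i of all counts (SD, n = 3 each; exact permutation p = 0.2), and 1.15 ± 0.098% in KI and 1.07 ± 0.025% in WT in LIF (exact permutation p = 0.2, n = 3 each). An exact two-sided test of 3 against 3 cannot go below 0.1. The regulatory particle held 0.635 ± 0.012% in KI and 0.552 ± 0.038% in WT in LIF/2i, and 0.656 ± 0.059% in KI and 0.580 ± 0.008% in WT in LIF. These groups did not overlap in either medium (exact permutation p = 0.1, n = 3 each). The 20S core, at 0.344 ± 0.008% in KI and 0.302 ± 0.032% in WT in LIF/2i, overlapped (exact permutation p = 0.2, n = 3 each). In LIF the core overlapped too, at 0.337 ± 0.026% in KI and 0.329 ± 0.014% in WT (exact permutation p = 0.7, n = 3 each). Shares without Psmb4 of the core and Psmd4 of the regulatory particle, which were set apart by WT replicate 2, are given below. With RNase I the regulatory particle held 0.627% in KI and 0.626% in WT in LIF/2i as means of 2 libraries, and all 50 genes held 1.14 to 1.15% in KI and 1.12 to 1.27% in WT in LIF/2i, with overlap. With TMM-adjusted totals, the scaling of the CPM values, the MNase groups in LIF/2i did not overlap, at 1.21 ± 0.0385% in KI and 1.02 ± 0.0769% in WT for all 50 genes and 0.366 ± 0.0117% in KI and 0.298 ± 0.0340% in WT for the core (SD, exact permutation p = 0.1, n = 3 each). In LIF both overlapped with MNase (exact permutation p = 0.2 for all 50 genes and 0.7 for the core). With RNase I in LIF/2i both overlapped as well. The means there were 1.15% in KI and 1.24% in WT for all 50 genes, and 0.346% and 0.377% for the core.

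Psmb4 of the beta ring and Psmd4, the ubiquitin receptor of the base, were set apart by WT replicate 2. Psmb4 was at 403, 815 and 493 CPM in the WT LIF/2i libraries 1, 2 and 3 with MNase, and at 454 and 934 CPM in libraries 1 and 2 with RNase I. Psmd4 was at 505, 1025 and 478 CPM with MNase and 495 and 1013 CPM with RNase I in the same groups. Replicate 2 was the high one each time, by a ratio over the other libraries of 1.83 and 2.05 for Psmb4 and 2.08 and 2.04 for Psmd4, and in LIF by 1.35 and 1.61 for Psmb4 and 1.43 and 1.51 for Psmd4, MNase before RNase I.

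Both genes lie on chromosome 3, as does Psma5 of the alpha ring. Psma5 was at 3.19, 5.28 and 5.16 CPM with MNase and 4.52 and 7.5 CPM with RNase I in WT LIF/2i, and at 3.19, 2.98 and 5.45 CPM with MNase and 4.95 and 8.12 CPM with RNase I in WT LIF. Its replicate 2 was the higher one with RNase I in both media and the highest with MNase in LIF/2i but the lowest in LIF, from 7 to 31 reads a library in LIF and 9 to 21 in LIF/2i with MNase. The 170 other chromosome 3 genes from Psmb4 to the distal end, at 20 CPM or more, had a median ratio of 1.32 to 1.41 in the 4 sets of WT libraries, while the 171 genes before Psmb4 were at 0.930 to 0.999 and 6833 genes on other chromosomes at 0.985 to 1.02. Of 35 genes that exceeded 0.7 on the log2 scale in all 4 sets, 34 were on chromosome 3, where 343 of the 7217 genes compared lie. These limits were set after the values had been seen, and DNA was not measured. With WT replicate 2 left out of both media, the KI over WT log2 fold change in LIF/2i was 0.05 for Psmb4 and -0.03 for Psmd4, against -0.29 and -0.47 with it, and neither gene was called either way. The share of MNase footprints without Psmb4 and Psmd4 was taken after these values were seen. It was 1.05 ± 0.022% in KI and 0.911 ± 0.020% in WT in LIF/2i, and 1.05 ± 0.081% in KI and 0.934 ± 0.016% in WT in LIF. The groups did not overlap in either medium (exact permutation p = 0.1, n = 3 each). With RNase I they overlapped in both media. The RNase I means were 1.05% in KI and 1.06% in WT in LIF/2i, and 1.10% in KI and 1.06% in WT in LIF. For the regulatory particle without Psmd4, the RNase I means were 0.581% in KI and 0.553% in WT in LIF/2i. In LIF they were 0.609% in KI and 0.557% in WT. Every KI library was above every WT library in both media, with 2 libraries per group and no test. The core without Psmb4 overlapped with RNase I in both media.

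**Figure D2:**
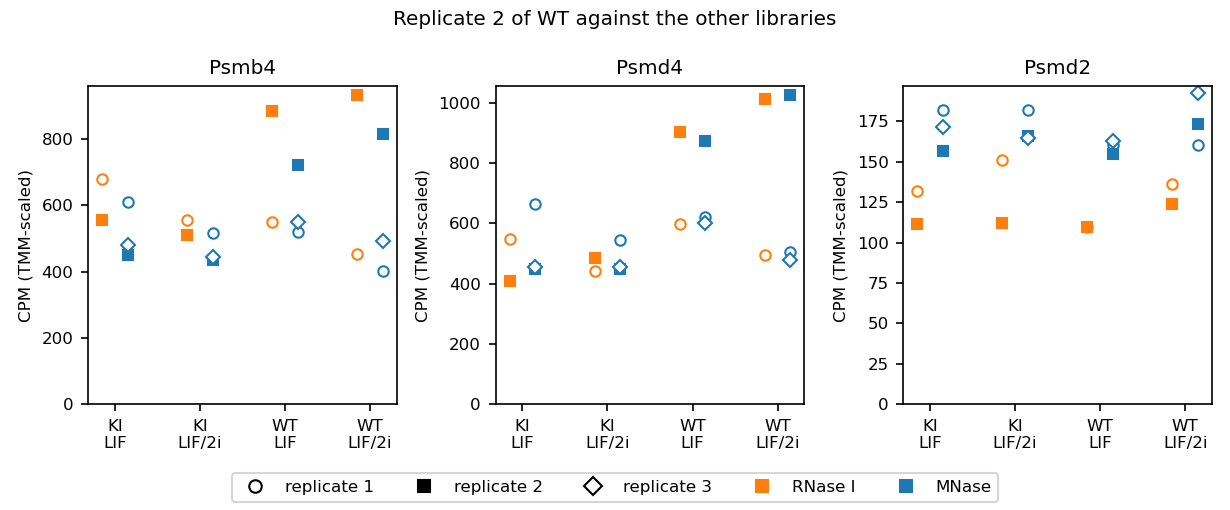
Levels of Psmb4, Psmd4 and, for comparison, Psmd2 are plotted in CPM (y axis) for each library by genotype and medium (x axis), with RNase I in orange left of MNase in blue and replicate 2 as filled squares. The filled squares of WT stand above the other WT libraries for Psmb4 and Psmd4 with both nucleases, and not for Psmd2.

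Between media, with MNase, the immunoproteasome gene Psmb10 was called higher in LIF in both genotypes and Psmb9 in WT, and few constitutive subunits were called. In WT with MNase, 5 of 47 members were higher in LIF than in LIF/2i and 1 was lower, where 21% of all genes tested were called, 9.97% higher and 11% lower. Of 31 constitutive subunits, 1 was called, the lid subunit Psmd8 (0.40). In KI, 2 were higher and 2 lower, where 18.8% of all genes were called, 8.4% higher and 10.4% lower.

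Psmb10, the immunoproteasome counterpart of Psmb7, was at 18.3, 42.0 and 25.5 CPM in LIF, against 7.8, 10.3 and 10.1 CPM in LIF/2i in WT (log2 fold change 1.61, SE 0.29, edgeR adjusted p = 0.00207). In KI it was at 26.3, 30.8 and 32.4 CPM in LIF, against 18.5, 13.4 and 12.4 CPM in LIF/2i (log2 fold change 1.02, SE 0.27, edgeR adjusted p = 0.017). Within each genotype every LIF library lay above every LIF/2i library. In WT the call stayed without any single library, and in KI it was lost without KI LIF replicate 2 or 3 or KI LIF/2i replicate 2 or 3. With RNase I, Psmb10 was at 11.3 and 29.5 CPM in LIF, against 6.6 and 8.2 CPM in LIF/2i in WT (log2 fold change 1.47, SE 0.43, edgeR adjusted p = 0.0577) and at 20.8 and 30.5 CPM in LIF, against 17.6 and 17.2 CPM in LIF/2i in KI (log2 fold change 0.56, SE 0.43, edgeR adjusted p = 0.567). The RNase I groups did not overlap, and neither difference passed the test.

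Psmb9, the counterpart of Psmb6, was at 2.74, 3.8 and 3.17 CPM in LIF, against 0, 0.293 and 1.48 CPM in LIF/2i in WT, from 6, 14 and 18 reads in LIF and 0, 1 and 6 in LIF/2i (log2 fold change 2.27, SE 0.72, edgeR adjusted p = 0.04). With RNase I it was at 2.48 and 4.18 CPM in LIF, against 0.452 and 0.462 CPM in LIF/2i in WT (log2 fold change 2.82, SE 0.54, edgeR adjusted p = 0.0121), so the WT groups did not overlap with either nuclease. In KI with MNase it was at 6.15, 2.32 and 3.69 CPM in LIF, against 1.22, 1.92 and 0.847 CPM in LIF/2i and was not called (log2 fold change 1.57, SE 0.55, edgeR adjusted p = 0.0615). The call in WT with MNase was lost without WT LIF/2i replicate 1 or 2, any single WT LIF replicate or KI LIF replicate 3, and its adjusted p ran from 0.000178 to 0.227 over all alternatives.

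Psmb8, the counterpart of Psmb5, had 2, 7 and 4 reads in KI LIF, 2, 5 and 1 in KI LIF/2i, 1, 11 and 5 in WT LIF and 0, 0 and 0 in WT LIF/2i with MNase. It was thus at 0 in all WT LIF/2i libraries, where 0 of 10152143 counts allows up to 0.296 CPM by counting error alone, and was not tested. With RNase I it had 0 and 1 reads in KI LIF, 1 and 0 in KI LIF/2i, 3 and 17 in WT LIF and 1 and 0 in WT LIF/2i. The highest counts with either nuclease were in WT LIF replicate 2. The constitutive counterparts were called in neither genotype with MNase in the fit without a block. In KI, Psmb5 was at 17.4, 13.8 and 14.4 CPM in LIF, against 23.7, 24.3 and 18.2 CPM in LIF/2i, with every LIF library below every LIF/2i library, and was lower with the replicate block in the KI libraries alone (-0.52, edgeR adjusted p = 0.047). In WT, Psmb5 was at 17.3, 19.8 and 20.2 CPM in LIF, against 19.9, 20.2 and 17.0 CPM in LIF/2i, Psmb6 at 239, 236 and 250.4 CPM in LIF, against 197, 226 and 155 CPM in LIF/2i and Psmb7 at 541, 458 and 462 CPM in LIF, against 396, 429 and 366 CPM in LIF/2i. In WT the ranges of Psmb5 overlapped, and every LIF library of Psmb6 and Psmb7 was above every LIF/2i library, at an edgeR adjusted p of 0.0949 and 0.0963.

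**Figure D3:**
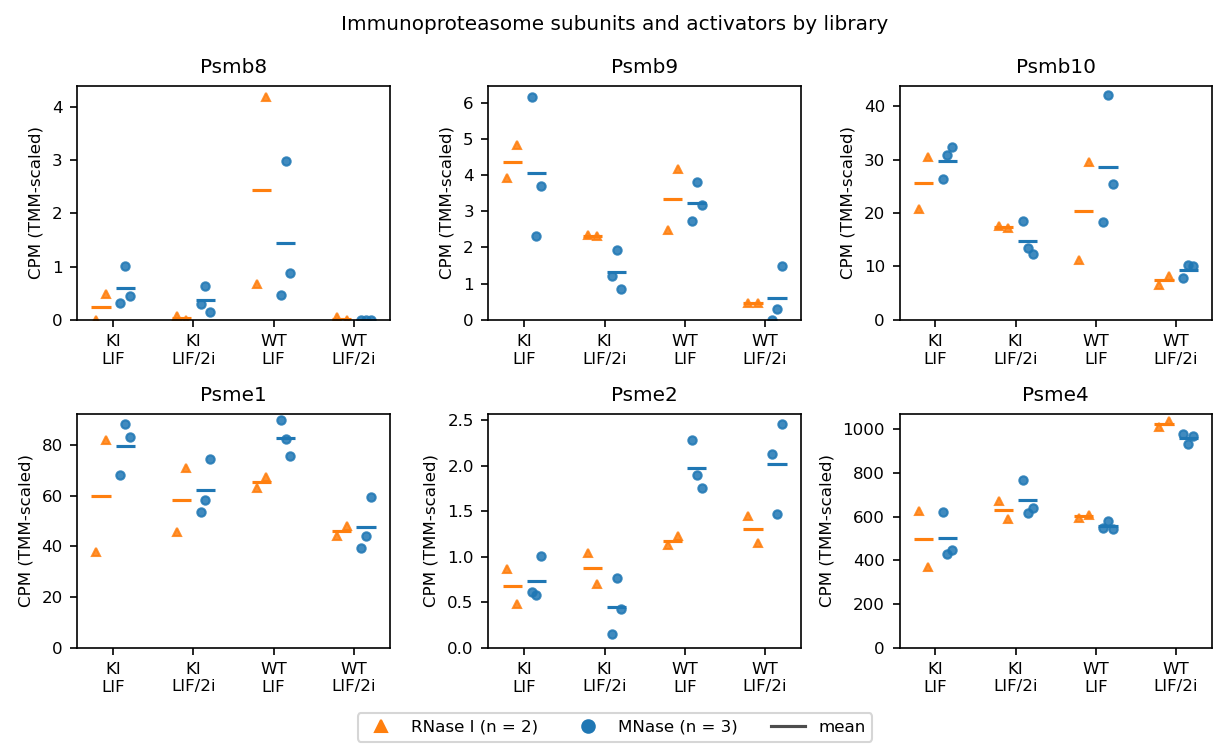
Levels in CPM (y axis) of the immunoproteasome genes Psmb8, Psmb9 and Psmb10 and the activators Psme1, Psme2 and Psme4 are plotted per library by genotype and medium (x axis), with triangles for RNase I, circles for MNase and bars for means. Psmb10 stands higher in LIF than in LIF/2i, Psme4 stands lower, and WT in LIF/2i has the lowest Psmb9 and Psmb10 means and the highest Psme4 means.

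Psme1, a subunit of the interferon-induced activator PA28, was at 89.9, 82.5 and 76.0 CPM in LIF, against 39.4, 44.3 and 59.7 CPM in LIF/2i in WT (log2 fold change 0.78, SE 0.18, edgeR adjusted p = 0.0096), without overlap. In KI it was at 68.2, 88.4 and 83.1 CPM in LIF, against 53.6, 58.4 and 74.7 CPM in LIF/2i, and these overlapped (log2 fold change 0.36, SE 0.18, edgeR adjusted p = 0.178). Its call in WT was lost with WT replicate 2 left out of both media. Its partner Psme2 had 5, 7 and 10 reads in LIF and 6, 5 and 10 in LIF/2i in WT, too few to set an order, and was not called. Psme3 was at 211, 202 and 202 CPM in LIF, against 181, 172 and 186 CPM in LIF/2i in WT and 294, 287 and 268 CPM in LIF, against 248, 273 and 260.4 CPM in LIF/2i in KI and was not called (edgeR adjusted p = 0.197 in WT and 0.437 in KI). Its WT groups did not overlap, with LIF above, and its KI groups did.

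Psme4 ran against the others. It was at 548, 579.9 and 544 CPM in LIF, against 978, 935 and 971 CPM in LIF/2i in WT (log2 fold change -0.79, SE 0.14, edgeR adjusted p = 0.00189). In KI it was at 624, 428 and 448 CPM in LIF, against 768, 618 and 639 CPM in LIF/2i (log2 fold change -0.43, SE 0.14, edgeR adjusted p = 0.0455). Every WT LIF library was below every WT LIF/2i library, and the KI groups overlapped. With RNase I it was at 596 and 608 CPM in LIF, against 1012 and 1039 CPM in LIF/2i in WT (log2 fold change -0.77, SE 0.22, edgeR adjusted p = 0.0557), again without overlap.

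The core chaperone Psmg2 was at 112, 86.4 and 102 CPM in LIF, against 71.0, 70.7 and 71.0 CPM in LIF/2i in KI (log2 fold change 0.50, SE 0.15, edgeR adjusted p = 0.0326) and at 76.7, 85.7 and 82.8 CPM in LIF, against 56.4, 69.3 and 47.2 CPM in LIF/2i in WT (log2 fold change 0.51, SE 0.15, edgeR adjusted p = 0.0321). Every LIF library was above every LIF/2i library in both genotypes. Psma2 was at 154, 129 and 127 CPM in LIF, against 187, 189 and 183 CPM in LIF/2i in KI (log2 fold change -0.44, SE 0.13, edgeR adjusted p = 0.0275). Psmd8 was at 479.5, 428 and 432 CPM in LIF, against 302, 379 and 333 CPM in LIF/2i in WT (log2 fold change 0.40, SE 0.12, edgeR adjusted p = 0.0318). The groups of Psma2 and Psmd8 did not overlap. None of these calls stayed in every fit that left out 1 library, and in WT those that did were Psmb10, Psme1 and Psme4. No call of KI stayed in all of them. The count was 0 without KI LIF replicate 3 or KI LIF/2i replicate 2 (background 11.5% and 11.7%) and 8 without KI LIF replicate 1 (21.5%). It was 2 with KI LIF/2i replicate 1 omitted (19.9%), 1 with KI LIF/2i replicate 3 omitted (12.5%) and 1 with KI LIF replicate 2 omitted (12.8%). In WT it was 3 without any single WT LIF replicate or WT LIF/2i replicate 1 (background 12.5% to 13.9%).

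Replicate numbers paired the KI libraries across media, with correlations of deviations of 0.563, 0.315 and 0.393, and did not pair the WT libraries. The KI libraries fitted alone with the replicate block, an alternative added after the data had been seen, called 9 members (background 30.4% of all genes). Psmb10 (1.05), Psmg2 (0.51), Psmb9 (1.55, edgeR adjusted p = 0.0253) and Psme1 (0.38, edgeR adjusted p = 0.0459) were higher in LIF, and Psmg4, Psme4, Psma2, Psmb5 and Psmb2 were lower.

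With RNase I, LIF against LIF/2i called no member in KI by edgeR (background 3.42%, 1.37% higher and 2.05% lower). In WT it called 3, where 13.5% of all genes were called, 7.06% higher and 6.42% lower. Psmb9 and the core chaperone Psmg3 (0.91) were higher and Psmg4, its partner, was lower (-0.78). Psmg3 was at 48.6 and 50.2 CPM in LIF, against 23.3 and 29.4 CPM in LIF/2i, and Psmg4 at 47.1 and 41.8 CPM in LIF, against 77.0 and 75.7 CPM in LIF/2i, each without overlap. All 3 calls were lost without WT LIF/2i replicate 1, WT LIF/2i replicate 2 or WT LIF replicate 2 (background 2.54%, 4.9% and 3.05%). Without WT LIF replicate 1 a count of 3 held 1 of them (background 4.71%). With KI LIF/2i replicate 1 or 2 omitted 6 were called (background 17.9% and 17.8%). With either KI LIF replicate omitted 5 were called (background 13.7% each). The genotype by medium interaction called no member with either nuclease by edgeR or DESeq2. The edgeR background was 0.336% with MNase, 0.102% higher and 0.234% lower, and 0% with RNase I. The media responses are thus not shown to differ between KI and WT, for Psmb9 (interaction -0.69, SE 0.92) and Psmb10 (-0.59, SE 0.39) among the rest. In the fit of all 12 MNase libraries without a block, the members called in no comparison of genotype or medium were Psma1, Psma3, Psma5, Psma7, Psma8, Psmb1, Psmb3, Psmb4, Psmb5, Psmb7, Psmc3ip, Psmd10, Psmd11, Psmd12, Psmd2, Psmd3, Psmd4, Psmd9, Psmf1, Psmg1, Psmg3 and Psmg4. Of these, Psmb5 and Psmg4 were called lower in LIF in the KI libraries fitted alone with the replicate block.

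Markers of other cells also moved with the medium. Trophoblast markers (5 of 5 found) summed to 405 to 568 CPM in LIF and 166 to 239 CPM in LIF/2i in WT, and primitive endoderm markers to 154 to 210 CPM in LIF and 61.2 to 66.0 CPM in LIF/2i. In KI the sums were 247 to 276 CPM in LIF and 74.1 to 224 CPM in LIF/2i for trophoblast, and 56.6 to 61.2 CPM in LIF and 37.6 to 58.7 CPM in LIF/2i for primitive endoderm. With MNase, 3 trophoblast markers were tested, and 3 were higher in LIF in WT and 0 in KI. Of 6 primitive endoderm markers tested, 3 were higher in WT and 1 in KI. None of either list was lower. Of all genes, 9.97% were higher in WT and 8.4% in KI. Among fibroblast markers (8 found, 6 tested), the collagen genes Col1a1, Col1a2 and Col3a1 were higher in LIF in both genotypes with MNase and Fn1 was lower, where 18.8% of all genes were called in KI and 21% in WT. The 6 genes had a median log2 fold change of 1.97 in KI and 3.20 in WT. Col1a1 was higher by 2.82 in KI and 5.59 in WT, and Fn1, at -1.60 in KI and -1.58 in WT, made up most of the summed level. The fibroblast markers summed to 1711 to 2141 CPM in LIF and 3884 to 4959 CPM in LIF/2i in WT, with Dcn at 0 in LIF/2i, and to 1502 to 2261 CPM in LIF and 4232 to 4639 CPM in LIF/2i in KI. Haematopoietic markers (6 of 6 found), of cells that carry the immunoproteasome as their main form, summed to 93.5 to 95.8 CPM in LIF and 90.1 to 112 CPM in LIF/2i in WT, with Ptprc, Cd52 and Lyz2 at 0 in LIF/2i and none at 0 in LIF. In KI they summed to 78.6 to 90.6 CPM in LIF and 77.8 to 206 CPM in LIF/2i, with Ptprc at 0 in LIF/2i and Lyz2 at 0 in both media. Only 3 of the 6 haematopoietic markers were tested. With MNase 1 was higher and 1 lower in LIF in KI, and 0 were called in WT. With RNase I 1 was higher in each genotype (background 1.37% higher in KI and 7.06% in WT). The part of these cells in the values of Psmb9, Psmb10 and Psme1 was not tested.

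The nuclease set several constitutive subunits far apart. Over replicates 1 and 2 of all 4 groups (16 libraries), 16 of 47 members were higher with RNase I and 3 were lower, where 32% of all genes were called, 15.7% higher and 16.3% lower. With the group and replicate number together as a block, 23 were higher and 4 lower (background 47.1%, 23.7% higher and 23.4% lower). The CPM ranges by nuclease given below cover all libraries, MNase replicate 3 included, and were scaled within each nuclease. The folds come from the 16 libraries scaled together.

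The active subunit Psmb5 was furthest apart. With RNase I it was at 98.1 and 102 CPM in KI LIF, 72.7 and 134 in KI LIF/2i, 78.1 and 88.3 in WT LIF and 69.3 and 90.5 in WT LIF/2i. With MNase it was at 17.4, 13.8 and 14.4 CPM in KI LIF, 23.7, 24.3 and 18.2 in KI LIF/2i, 17.3, 19.8 and 20.2 in WT LIF and 19.9, 20.2 and 17.0 in WT LIF/2i, and the ranges did not overlap (log2 fold change 2.27, SE 0.14, edgeR adjusted p = 3.34e-08). Psma3 of the alpha ring lay at 31.7 to 48.6 CPM with RNase I and 5.93 to 19.5 CPM with MNase (log2 fold change 1.58, SE 0.16, edgeR adjusted p = 2.02e-06). Psmb3 of the beta ring lay at 31.8 to 80.7 CPM with RNase I and 8.61 to 30.8 CPM with MNase (log2 fold change 1.17, SE 0.15, edgeR adjusted p = 2.16e-05). Neither of these overlapped either. The other active subunits, Psmb6 (-0.10) and Psmb7 (-0.16), were not called.

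All 4 core assembly chaperones were higher with RNase I: Psmg1 by 0.54, Psmg2 by 0.60, Psmg3 by 0.63 and Psmg4 by 0.42. Psmg2 lay at 85.9 to 133 CPM with RNase I and 47.2 to 112 CPM with MNase, overlapping (log2 fold change 0.60, SE 0.10, edgeR adjusted p = 0.000331). Of the ATPase ring, 4 of 6 were higher, with Psmc4 at log2 fold change 0.63, SE 0.08, edgeR adjusted p = 2.77e-05. It lay at 368 to 523 CPM with RNase I and 188 to 384 CPM with MNase, which overlapped.

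The 3 lower members were Psmd8 (log2 fold change -0.47, SE 0.08, edgeR adjusted p = 0.000334), Psmd2 (log2 fold change -0.40, SE 0.08, edgeR adjusted p = 0.00124) and Psma4 (log2 fold change -0.34, SE 0.09, edgeR adjusted p = 0.00775). Psmd8 lay at 229 to 309 CPM with RNase I and 302 to 479.5 CPM with MNase. Psmd2, the large ubiquitin-binding scaffold of the base, lay at 109 to 151 CPM with RNase I and 155 to 193 CPM with MNase, without overlap, whereas Psmd8 overlapped. Psma4 lay at 52.9 to 70.1 CPM with RNase I and 57.5 to 98.5 CPM with MNase, which overlapped. In the alpha ring Psma3 was higher and Psma4 lower. No immunoproteasome gene was called by nuclease.

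**Figure D4:**
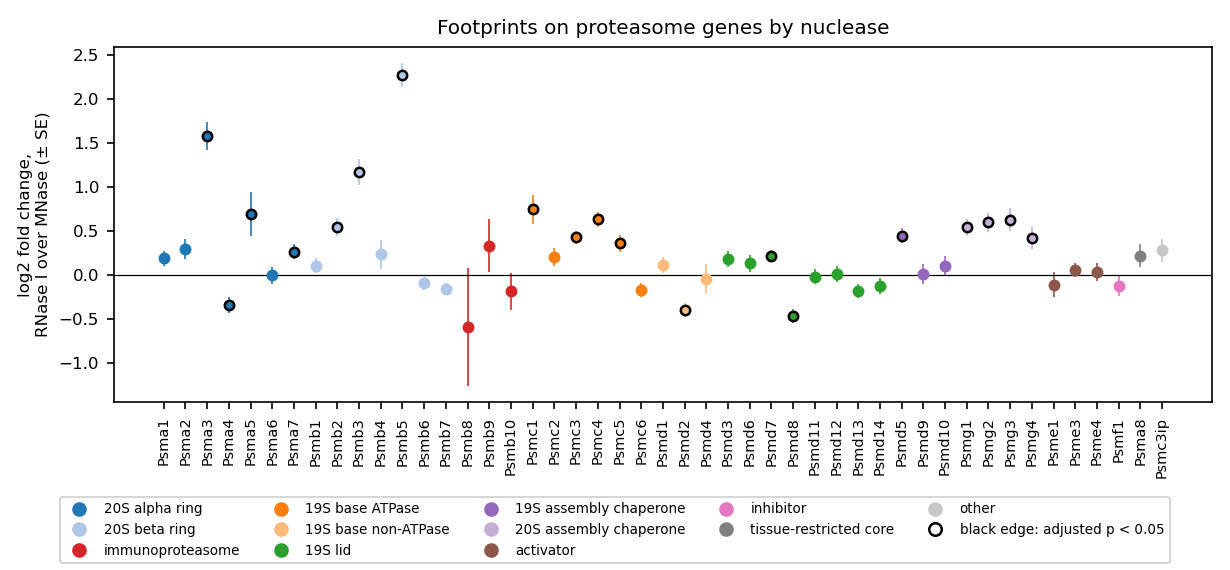
The log2 fold change of RNase I over MNase (y axis, ± SE of the fit over 16 libraries) is drawn for each tested proteasome gene (x axis), coloured by class, with a black edge at adjusted p under 0.05. Psmb5 (2.27), Psma3 (1.58) and Psmb3 (1.17) stand above the other genes, and Psmd8 (-0.47) is the lowest gene called.

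Genes that act with the proteasome but lie outside the name rule were called in part. In LIF/2i with MNase, the proteasome-bound ubiquitin enzymes Uchl5 (1.00), a deubiquitinase of the base, and Ube3a (1.06), a ubiquitin ligase, were higher in KI, 2 of 4 tested, where 25.4% of all genes were called. In LIF with MNase, 3 of these 4 were higher: Uchl5 (0.67), Ube3a (0.69) and the ligase Ube3c (0.50), where 13.6% of all genes were called. With RNase I none of the 4 was called in either medium (background 0.215% in LIF/2i and 0.116% in LIF). Their median log2 fold change was 0.68 in LIF/2i and 0.59 in LIF with MNase, against -0.23 and 0.09 with RNase I. Of 5 other subunits and assembly factors found of 6 (Paaf1 was not matched), 2 were higher and 1 lower in LIF/2i with MNase and none was called in LIF. With RNase I none of these 5 was called in either medium. Of the 7 ubiquitin shuttles, 0 were higher and 2 lower in KI in LIF/2i with MNase. There 13.9% of all genes were higher and 11.5% lower. Of 10 tested genes of antigen presentation and the interferon response, 1 was higher and 0 were lower in that comparison. No gene of these 2 lists was called for KI against WT in LIF with MNase, or in either medium with RNase I. In LIF with MNase the ubiquitin-activating enzymes Uba6 (1.07) and Uba1 (0.33) were higher in KI than in WT and the polyubiquitin gene Ubb was lower (-0.82). Ubiquitin-coding genes share repeats, and their counts may be split.

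Nfe2l1, the factor that raises subunit genes, was at 206 ± 36.0 CPM in KI and 189 ± 16.9 CPM in WT in LIF/2i with MNase (SD, n = 3 each; log2 fold change 0.12, SE 0.14, edgeR adjusted p = 0.527) and was called in no comparison of genotype or medium. Of the 7 genes of transcriptional control, 1 was higher and 1 lower in KI in LIF/2i with MNase, where 13.9% of all genes were higher and 11.5% lower. In KI with MNase, 3 of these 7 were lower in LIF than in LIF/2i, where 18.8% of all genes were called, 10.4% lower. Among them were Nfe2l2 (-0.83), the antioxidant regulator, and Bach1 (-1.30), a repressor of the same elements. In WT with MNase 0 of the 7 were called (background 21%). The median log2 fold change of the 7 was -0.23 in KI and -0.26 in WT. With RNase I, 0 of the 7 were called in either genotype (background 3.42% in KI and 13.5% in WT).

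Of 11 genes of antigen presentation and the interferon response, 10 were tested with MNase, and in LIF against LIF/2i none was higher and 1 was lower in each genotype. Of all genes, 8.4% were higher and 10.4% lower in KI, and 9.97% higher and 11% lower in WT. The gene called was Ubd, an interferon-induced ubiquitin-like modifier, at -3.36 in KI and -2.28 in WT. With RNase I, Ubd was again lower in LIF, at -2.21 in KI and -2.80 in WT, and H2-K1, a class I antigen-presenting chain, was higher in LIF in WT (1.61). All 7 ubiquitin shuttles were lower with RNase I than with MNase, where 32% of all genes were called, 16.3% lower, led by Rad23b (-0.53) and Ubqln4 (-0.45). The protease Ddi2, which activates the Nfe2l1 product, and Ubb were lower by 1.48 and 1.47 on the log2 scale. Nfe2l1, Nfe2l2 and the ubiquitin gene Rps27a were higher by 0.27, 0.52 and 0.47.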

How the data were processed

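The deposited values are raw counts of ribosome footprints on coding sequences, per the file headers and the labels' protocols; molecular identifiers were used, and footprints of 25 to 40 nt came from monosome fractions. The submitters' processing notes name cutadapt 3.4, Bowtie 1.3.0 and UMI-tools 1.0.1, and the genome build and annotation are not given in the sources used here. Counts of 20 libraries were grouped by genotype, medium and nuclease from the labels. Each nuclease was fitted alone over its 4 groups with edgeR 4.0.16 (R 4.3.3): filterByExpr by group, TMM, robust quasi-likelihood tests, Benjamini-Hochberg over all genes tested and a threshold of 0.05. The nucleases were compared over the 16 libraries of replicates 1 and 2. Shares were tested with exact two-sided permutation over libraries. The fit was tested on simulated counts. Alternatives were DESeq2 1.42.0, library totals alone, no filter, thinning, replicate blocks, omitted libraries and pooled nucleases.

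The members and lists were chosen with earlier results of these data known. Values per library are given for Psmb5 to Psmb10, Psme1 to Psme4, Psma8, Psmb11 and Psmc3ip and, per comparison, for up to 5 members with the smallest adjusted p called in each direction, with 4 list genes per comparison, Nfe2l1 and Eif2s1 named besides. Same-numbered KI libraries of the 2 media deviated together in every pair (correlations 0.563, 0.315 and 0.393), so the numbers pair them; the WT libraries (0.015, 0.078 and 0.035) and the genotypes do not. Intervals and floors cover counting error only, with the floor at 3 counts. One gene of the ubiquitin list, and that list's counts, are not reported here. Gene names in capitals in the file are printed in mouse style.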

Additional observations from a re-analysis of the deposited data

Results flagged for a closer look

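Results are listed here because the KI over WT difference with RNase I minus that with MNase passed a test over the 16 libraries of replicates 1 and 2. Its block was the group and replicate number together, and the labels do not say whether same-numbered libraries shared a culture. The test was added after the data had been seen, and without the block edgeR called 0 genes in either medium. All differences are log2 values, lower with RNase I. In LIF/2i they were -0.83 for Psma2, -0.69 for Psma6, -0.42 for Psma1, -0.65 for Psmb2, -0.39 for Psmb6 and -0.37 for Psmb1 in the core. In the ATPase ring they were -0.56 for Psmc5, -0.48 for Psmc2, -0.43 for Psmc4, -0.38 for Psmc3 and -0.44 for Psmc6. Among the other regulatory particle subunits they were -0.60 for Psmd6, -0.56 for Psmd14, -0.42 for Psmd12, -0.37 for Psmd1 and -0.34 for Psmd7. The chaperone Psmd5 was at -0.56 and the activator Psme3 at -0.45. In LIF, Psmd12 was at -0.60 and Psmd1 at -0.47.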

How the results depend on the processing

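Over the alternatives, 279 values of counts, medians and shares stayed and 59 moved, and of values of named genes 652 kept their call, 182 lost it and 7 reversed. The reversals were all in RNase I libraries alone, for KI over WT in LIF/2i: Psma6 -0.12, Psmd5 -0.081, Psmc2 -0.027, Psmb2 -0.089, Psmb6 -0.074, Psma2 -0.21 and Psmc3 -0.0077. The cause was not tested.

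The median of the members for KI over WT in LIF/2i was 0.27 with library totals alone, 0.014 with RNase I alone and 0.24 with both nucleases. In LIF it was 0.051 without KI replicate 1. For LIF over LIF/2i in KI it was -0.15 without KI replicate 1 and 0.063 with RNase I, and for the interaction 0.028 with RNase I and -0.043 with both. Library totals alone moved the median of all genes by -0.10 and 0.10 for KI over WT in LIF/2i and for LIF over LIF/2i in KI. Calls with thinning were 2 in KI and 3 in WT for the medium (background 14.6% and 18.9%). Without KI replicate 1 they were 9 in KI, 11 in WT and 2 for the interaction (background 25%, 32.3% and 3.81%). Without WT replicate 2 they were 3 for KI over WT in LIF (background 6.77%). Replicates 1 and 2 alone gave 1, 0 and 0 for KI over WT in LIF/2i, in LIF and for the medium in KI (background 2.08%, 0.0715% and 4.97%). KI libraries alone gave 2, and 9 with the replicate block (background 13.7% and 30.4%). RNase I alone gave 0 for KI over WT in LIF/2i and in LIF, 0 for the medium in KI and 3 for the medium in WT. The background was 0.215%, 0.116%, 3.42% and 13.5% in that order. For the medium in WT it gave 6 by DESeq2, 6 with no filter and 5 with the replicate block (background 11.5%, 12% and 14.7%). The block by group and replicate number gave 18 and 2 for the difference by nuclease in LIF/2i and LIF (background 15.7% and 0.982%), against 0 and 0 without it. With TMM-adjusted totals the share differences for KI minus WT in LIF/2i were 0.189 (all members), 0.0675 (core) and 0.130 (regulatory particle) percentage points, and for LIF minus LIF/2i in KI -0.0698, -0.0312 and -0.0258.

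Leaving out 1 library gave medians of 0.0551 to 0.258 (KI over WT in LIF), 0.336 to 0.412 (in LIF/2i), -0.167 to 0.0134 (medium in KI), 0.0241 to 0.125 (medium in WT) and -0.272 to -0.0442 (interaction). Calls ran from 4 to 10, 12 to 24, 0 to 8, 3 to 7 and 0 to 0 in that order. The background over these fits ran from 5.5 to 17.3%, 12.2 to 30%, 11.5 to 21.5%, 12.5 to 24.6% and 0.0761 to 1.12%. With RNase I calls ran from 0 to 0 apart from 0 to 6 for the medium in WT (background 2.54 to 17.9%). For the nuclease they were 16 without replicate 1 and 16 without replicate 2 (background 25.2% and 32.3%). Without KI LIF/2i replicate 2 the count in LIF/2i was 12 (background 12.2%). Levels per coding length were not run. RNase I groups held 2 libraries each, and thinning to the smallest MNase library left 18 and 9 genotype calls (background 22.2% and 12.7%).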
